A study of Caenorhabditis elegans with 4 samples.

Results

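Chromosome IV carried 1048 of the 5803 binding regions listed for the transcription factor PQM-1 in third-stage (L3) larvae of the nematode Caenorhabditis elegans. These are all listed regions assigned to that chromosome, chosen by position alone and not by any measured value. Chromatin was taken from hermaphrodites of strain OP201, which carry the mutation unc119(ed3) and the transgene wgIs201. That transgene, brought in by bombardment, holds unc119 and a tagged extra gene copy written as pqm-1::TY1 EGFP FLAG C. Larvae were grown at 20 °C on E. coli HB101 and fixed in 2% formaldehyde, and chromatin was recovered with goat antibodies against GFP. There were 2 extractions, each with an input DNA and an anti-GFP ChIP library (n = 2 per group), all of this 1 strain and stage, and no strain without the tag was among them. The list therefore describes binding of the tagged protein from 1 transgenic line, averaged over all cells of the larva. The protocol text in the labels speaks of embryos where the stage label says L3.

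PQM-1 is a C2H2 zinc finger protein found in intestinal nuclei, and it is known for acting in the stress and lifespan response downstream of the insulin receptor DAF-2, where its nuclear entry alternates with that of the FOXO factor DAF-16. The autosomes of this species have gene-rich centres that recombine rarely, flanked by arms that recombine more often and hold more repeats. Chromosome IV also bears broad clusters of piRNA genes. The positions of genes were not compared with the regions here.

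Each region comes with its start, its end and a q-value from PeakSeq, a caller that sets the ChIP tags of a candidate region against those of a control scaled to the ChIP library. The list was made from both extractions together and gives no value for a single library, so no replicate spread and no test over samples can be given. Values below are set against exact 95% intervals, which are Poisson for densities, Clopper-Pearson for shares and taken from the order of the values for medians. These intervals cover counting error only and treat regions as independent. Where such intervals overlap, the difference itself was not tested, and overlap alone does not show that the values are the same. On chromosome IV the variance of the region count over 100 kb windows was 2.62 times its mean, so the true spread between stretches is wider than a Poisson interval. The listed regions were 45.1% of the 12873 candidates that the q-values imply were tested. Solving the q-values for whole tag numbers gave a single pair of ChIP and scaled control tags for all 1048 regions of IV. The sum over IV was 100466 ChIP tags against 28163 scaled control tags.

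The density of regions on IV differed from that of I and not, beyond counting error, from those of II, III and V. IV held 59.99 regions per Mb (95% interval 56.4 to 63.7), over a length of 17.5 Mb taken as the largest listed coordinate. Its ratio was 1.07 to chromosome II (95% interval 0.977 to 1.17), 0.978 to III (0.892 to 1.07) and 1.00 to V (0.921 to 1.09). Each of these intervals includes 1. Set against all 4 other autosomes the ratio was 1.12 (95% interval 1.04 to 1.20), but without chromosome I, the autosome of lowest density, it was 1.01 (0.944 to 1.09). The ratio to I alone was 1.66, with a 95% interval of 1.499 to 1.85. The regions covered 2.64% of IV, against 2.54% of the other autosomes. That pooled share includes 1.83% on I, while II, III and V each stood at 2.75%, above IV by value.

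Each region was placed by its midpoint in a left arm, a centre or a right arm, each of 5.82 Mb. The left arm held 306 regions, the centre 474 and the right arm 268. Their densities were 52.5 per Mb in the left arm (95% interval 46.8 to 58.8), 81.4 in the centre (74.2 to 89.1) and 46.0 in the right arm (40.7 to 51.9). The interval of the centre lay above those of both arms, while those of the arms overlapped. The centre of IV was the densest of all 15 such parts of the autosomes, ahead of the centre of V at 80.9, whose interval of 74.4 to 87.9 overlaps it. The ratio of centre to arms was 1.65 on IV (95% interval 1.46 to 1.87) and 1.58 on the other autosomes (1.48 to 1.69).

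The boundaries between these parts fell in sparsely bound stretches. On either side of the first boundary, at 5.82 Mb, lay IV:5821880-5822335, where the ChIP tags were 3.50 times the scaled control tags (the ratio used below), and IV:5966983-5967477, with 4.15. On either side of the second, at 11.6 Mb, lay IV:11635574-11636554, with a ratio of 1.68, and IV:11692247-11692836, with 3.39. A small shift of either boundary would thus move few regions. With arms of 25% of the length each, the ratio of centre to arms was 1.81.

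**Figure D1:**
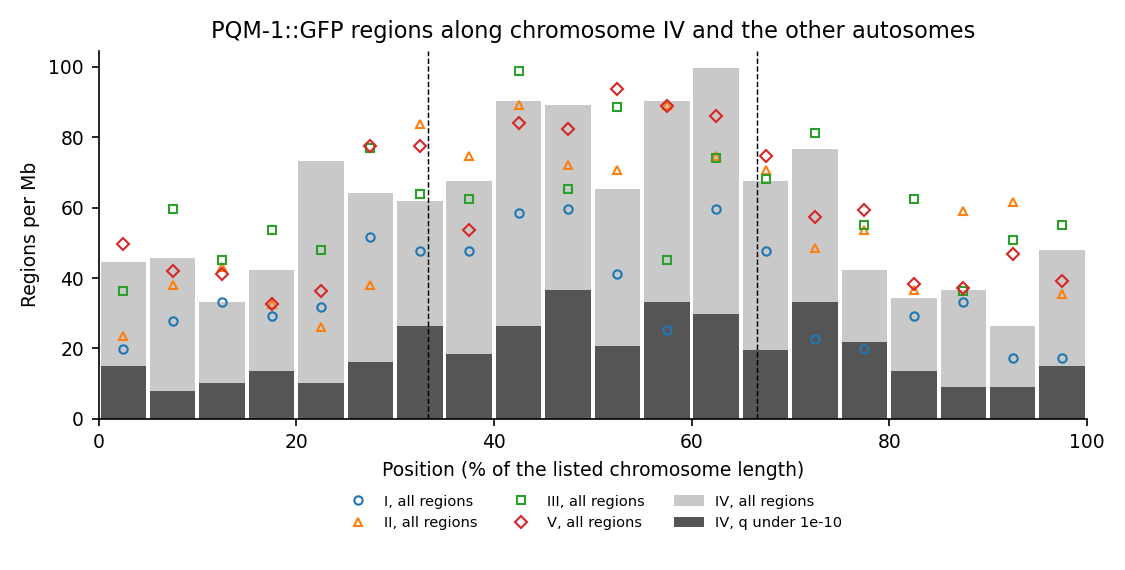
Regions per Mb in 20 equal steps along each autosome, with position as a percentage of the listed length. Light bars are all regions of IV, dark bars those with a q-value under 1e-10, open symbols the other autosomes, and dashed lines the boundaries between arms and centre. The highest step of IV, 99.6 per Mb, lies in the centre, right of its middle, and the lowest, 26.3 per Mb, near the right end.

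In bins of 1 Mb the dense zone of IV was continuous and lay slightly to the right of the chromosome's middle. All 7 bins from 6 to 13 Mb held between 72 and 87 regions, 570 in all. The 6 bins to the left held 39 to 83 and the 4 full bins to the right 26 to 44. The last stretch, from 17 Mb to the end, held 32 although it was shorter than 1 Mb. The right edge was abrupt, with 76 regions from 12 to 13 Mb and 44 from 13 to 14 Mb. The left side had 1 bin outside the dense zone that was as full as those within, from 4 to 5 Mb with 83 regions, followed by 46 from 5 to 6 Mb. Over the full bins of IV the range of 26 to 87 lay inside that of V, 25 to 113. The limits of this zone were set from the counts themselves.

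The densest window of 100 kb, IV:4400001-4500000, lay in the left arm and held 23 regions. Of these, 16 were packed into 21.3 kb at IV:4468140-4489433, with a median ratio of 3.17. The other 7 formed a group of 4 at IV:4400833-4407374 and a group of 3 at IV:4445715-4450503. The ratios in the window ran from 1.72 to 5.83, and 8 of the 23 regions had a q-value under 1e-10. The window was thus dense in regions of ordinary strength, and its best q-value was 3.15e-23. Its median scaled control, 54.9 tags per kb, was below the 59.8 of all regions of IV (95% interval 58.6 to 61.1). These values are not matched for width. The median width was 486 bp in the window and 368 bp on IV. The median control on IV was 45.9 tags per kb in regions of 1 kb or more and 60 in narrower ones.

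The next fullest windows differed from it in strength. IV:12900001-13000000, in the right arm, held 17 regions with a median width of 289 bp and a median ratio of 4.42. Then came 3 windows with 15 regions each. Of these, IV:8500001-8600000 in the centre held 10 regions with a q-value under 1e-10 and IV:13300001-13400000 in the right arm held 9, while IV:7000001-7100000 in the centre held 4 and had a median ratio of 2.87. The windows with 15 or more regions therefore covered a range of strengths.

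Few windows of IV were empty. Of 174 full windows, 7 held no region (4.02%, 95% interval 1.63 to 8.11), against 5.86% of 648 windows on the other autosomes (4.18 to 7.96). Of the 7, 3 lay in the left arm, 4 in the right arm and 0 in the centre, where the emptiest of 58 windows held 1 region. Windows with 10 or more regions made up 17.2% on IV (11.9 to 23.7), 19 of these 30 being in the centre, and 14.4% on the other autosomes (11.7 to 17.3). Both pairs of intervals overlap. The pooled values include chromosome I, where 13.3% of windows were empty and 2.67% held 10 or more regions. Empty windows made up 3.29% on II, 4.38% on III and 3.35% on V. Those with 10 or more regions made up 17.1%, 16.8% and 19.1% there, so IV was like II, III and V on both counts.

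**Figure D2:**
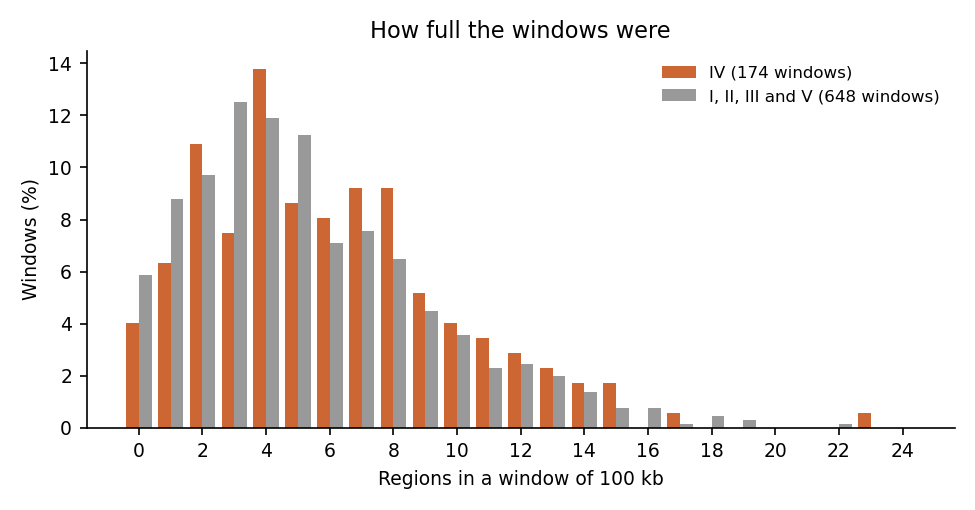
Share of full windows of 100 kb by the number of regions in them, for the 174 windows of IV and the 648 of the other 4 autosomes. The window with 23 regions is on IV, where the median window held 5, as on the other autosomes.

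Stretches with no region were longest in the arms. The longest ran for 227.9 kb at IV:16865845-17093698 in the right arm. It was followed by IV:5393967-5580640 in the left arm (186.7 kb), IV:15984530-16167037 (182.5 kb) and IV:13059307-13239395 (180.1 kb) in the right arm, and IV:1867311-2033057 in the left arm (165.7 kb). The regions bordering these 5 stretches had ratios of 2.00 to 3.96, so none of them was bordered by a region with a ratio of 5 or more. Only 16.8% of all regions of IV had such a ratio, so its absence at so few borders is not a result about the stretches. In all, 21 stretches of 100 kb or more took up 16.8% of the chromosome, with 10 in the right arm, 7 in the left arm and 4 in the centre. That share was 10.2% on II, 11.4% on III, 11.5% on V and 31.3% on I.

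The gaps between neighbouring regions had a median of 5.19 kb on IV, with 3.92 kb in the centre, 6.85 kb in the left arm and 6.94 kb in the right arm (each gap is counted with the region to its right). Gaps of less than 5 kb made up 49.7% of those on IV (95% interval 46.6 to 52.7) and 43.6% on the other autosomes (42.0 to 45.3), and these intervals do not overlap. The pooled share includes chromosome I, with a median gap of 11.2 kb, and was not computed without it. The median gap was 6.59 kb on II, 6.96 kb on III, 6.32 kb on V and 5.36 kb on X. Gaps of 50 kb or more made up 3.59% in the centre (2.10 to 5.68) and 11.0% in the arms (8.55 to 13.8). Short gaps were thus found in every part, at 53.6% in the centre and 46.4% in the arms, whose intervals overlap, while long gaps were found mostly in the arms.

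The frequency of close neighbours on IV lay within counting error of that on the other autosomes pooled. In all, 176 regions of IV (16.8%, 95% interval 14.6 to 19.2) had another midpoint within 1 kb, against 15.6% on the other autosomes (14.4 to 16.9). Chromosome I stood at 7.55% (5.47 to 10.1), below the interval of IV, and II, III and V at 15.7%, 16.2% and 18.7%. The share was 20.5% in the centre (16.9 to 24.4), 11.8% in the left arm (8.38 to 15.9) and 16.0% in the right arm (11.9 to 21.0), so that only the intervals of centre and left arm stood apart. Joining regions across gaps of up to 1 kb gave 113 pairs and 37 longer chains. The longest, IV:8530563-8536267, strung 6 regions over 5705 bp, with ratios of 2.89 to 7.50, and 5 of the 6 had a q-value under 1e-10. The next named were IV:9801372-9806486 and IV:7045571-7050157, both in the centre, the 2 of lowest q-value among 5 chains with 5 regions each. No value shows whether such neighbours are separate sites or 1 site split by the caller.

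The strength of a region was read first from its q-value. On IV 337 regions had a q-value under 1e-10, or 32.2% (95% interval 29.3 to 35.1), against 29.3% of the whole list and 28.1% of the other autosomes (26.6 to 29.6). V stood at 32.0%. A q-value under 1e-20 was reached by 116 regions of IV, or 11.1% (9.23 to 13.1), against 10.4% of the whole list. A share near that of the list is not a result about IV. Regions of IV made up 27 of the first 100 rows of the list, 202 of the first 1000 and 1048 of all 5803, or 27.0% (18.6 to 36.8), 20.2% (17.8 to 22.8) and 18.1%.

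The tag ratio was higher on IV than over the other 4 autosomes pooled. Its median was 3.17 (95% interval 3.10 to 3.24), against 2.84 (2.80 to 2.89). The middle 50% of the regions of IV lay between 2.52 and 4.25. V alone had a median of 3.08 (3.00 to 3.16), whose interval overlaps that of IV, while those of I, II and III, up to 2.88 (2.79 to 3.00), lay below it. A ratio of 5 or more was found in 176 regions of IV, or 16.8% (14.6 to 19.2), beside 11.3% of the whole list and 13.6% on V (11.8 to 15.7). The control moved with this. The median region of IV held 77 ChIP against 24 scaled control tags and that of the other autosomes 83 against 28. Among regions of 300 to 500 bp the ChIP tags were 224.1 per kb on IV (217 to 231) and 224.5 elsewhere (221.9 to 228.3), while the scaled control was 61.9 per kb (59.7 to 65.3) against 71.0 (69.8 to 72.3). The part of the control in the higher ratio of IV was not tested. Over regions of all widths the ChIP tags per kb were lower on IV, at 194.9 (190.1 to 200.7) against 206.6 (204.1 to 209.2).

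The right arm of IV had the fewest regions of its 3 parts and, by value, the largest share of strong ones. This pattern was noticed in the data. Within IV the intervals of the 3 parts overlap, and the differences between them were not tested. A q-value under 1e-20 was reached by 43 of its 268 regions, or 16.0% (95% interval 11.9 to 21.0), by 46 of 474 in the centre, or 9.70% (7.19 to 12.7), and by 27 of 306 in the left arm, or 8.82% (5.90 to 12.6). The right arms of the other autosomes together stood at 8.14% (6.52 to 10.02), whose interval does not overlap that of IV. One by one they stood at 3.20% on I (0.879 to 7.99), 8.43% on II (5.36 to 12.5), 8.39% on III (5.40 to 12.3) and 9.55% on V (6.63 to 13.2), and of these only the interval of I lay wholly below that of IV. The right arm of IV had the highest such share of the 15 parts of the autosomes.

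Counted per Mb, the excess of the centre over the right arm was smaller, by value, at stricter limits. The density of regions with a q-value under 1e-20 was 7.38 per Mb in the right arm (95% interval 5.34 to 9.95), 7.90 in the centre (5.78 to 10.5) and 4.64 in the left arm (3.06 to 6.75). The ratio of centre to right arm was 1.77 over all regions of IV (1.52 to 2.06), 1.57 over those with a q-value under 1e-10 (1.21 to 2.04) and 1.07 over those under 1e-20 (0.690 to 1.66). The last interval includes 1 and overlaps both others. On the other autosomes this ratio was 1.55 over all regions (1.43 to 1.68), 1.71 under 1e-10 (1.47 to 1.99) and 2.12 under 1e-20 (1.62 to 2.80). The intervals of 1.07 and 2.12 overlap slightly, which does not decide whether the ratios differ. The difference between IV and the other autosomes in this ratio was not tested.

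**Figure D3:**
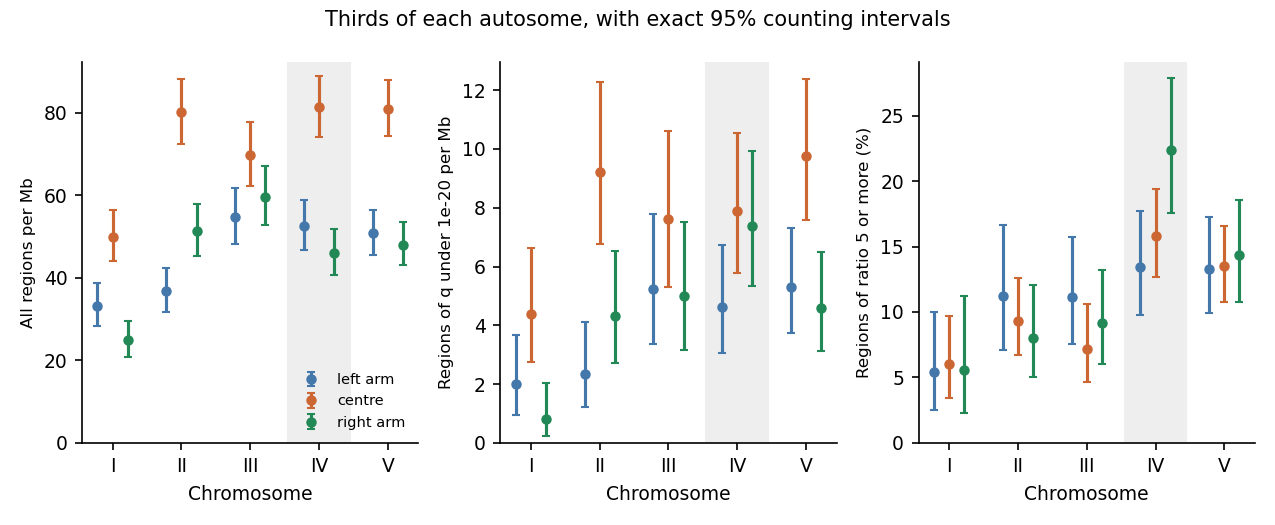
Left arm, centre and right arm of each autosome, with exact 95% counting intervals as bars: all regions per Mb, regions with a q-value under 1e-20 per Mb, and the share of regions with a ratio of 5 or more. On IV (shaded) the right arm is at 46.0, 7.38 and 22.4% on the 3 scales.

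The same arm was high by the tag ratio, and less clearly by ChIP tags alone. The ratio is solved from the same q-values and is no second measure of strength. A ratio of 5 or more was found in 60 regions of the right arm, or 22.4% (95% interval 17.5 to 27.9), against 15.8% in the centre (12.7 to 19.4) and 13.4% in the left arm (9.79 to 17.7), which overlap it, and 10.2% in the right arms of the other autosomes (8.34 to 12.2). At least 200 ChIP tags, a measure without the control, were held by 24 of its regions, or 8.96% (5.82 to 13.03), against 5.83% in the right arms of the other autosomes (4.46 to 7.47), and these intervals overlap. In the centre of IV the same measure was low, with 28 of 474 regions, or 5.91% (3.96 to 8.43), against 10.4% in the other centres pooled (8.90 to 12.0). Taken singly, only the interval of the centre of I (9.26 to 18.04) lay above that of IV, and those of II, III and V overlapped it. The scaled control in regions of 300 to 500 bp was 60.2 tags per kb in the right arm of IV (56.7 to 64.3), 61.9 in its centre (58.5 to 66.5) and 59.8 in the right arm of V (56.3 to 63.3). With a control at that level, the right arm of V had a ratio of 5 or more in 14.3% of its regions (10.8 to 18.5), an interval that overlaps that of IV.

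Within the right arm the share of strong regions was higher, by value, in the inner part. Its inner 2.91 Mb held 156 regions, of which 27.6% had a ratio of 5 or more (95% interval 20.7 to 35.3), and the outer 2.91 Mb held 112, of which 15.2% did (9.10 to 23.2). A q-value under 1e-20 was found in 18.6% (12.8 to 25.6) and 12.5% (7.01 to 20.1). The bin from 13 to 14 Mb, just past the edge of the dense zone, had a q-value under 1e-10 in 23 of its 44 regions, or 52.3% (36.7 to 67.5). The bins from 15 to 17 Mb had 6 of 32 and 7 of 26, and the last stretch, from 17 Mb to the end, had 12 of 32, or 37.5% (21.1 to 56.3). The intervals of the inner and outer parts overlap. The difference between them was not tested, so no trend along the arm is claimed or excluded.

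The left arm held the longest run without a strong region. IV:4821386-5374224, a run of 552.8 kb, had 14 listed regions, of which 0 had a q-value under 1e-10. The densest window of the chromosome lay to its left, and IV:5375469-5377678, the fifth widest region of IV, just past its right end. The 337 strong regions of IV followed each other with a median gap of 21.3 kb.

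Of the 10 regions of lowest q-value on IV, 4 lay in the right arm, 3 in the left arm and 3 in the centre, and they ranked from 4 to 33 in the whole list. They fell into 5 compact regions, of 459 to 725 bp and at most 42 control tags, and 5 broad ones, of 1620 bp or more and at least 71. The compact regions were led by IV:13919121-13919602 in the right arm, 482 bp wide, with 426 ChIP and 30 scaled control tags and a ratio of 14.2 (95% interval 9.80 to 21.3). IV:14594128-14594773, also in the right arm, had a ratio of 12.5 (8.82 to 18.1). In the left arm IV:3227485-3228209 had 10.3 (7.52 to 14.5) and IV:3899775-3900233 had 12.0 (8.06 to 18.7), and in the centre IV:8032072-8032590 had 12.0 (7.81 to 19.2). The intervals of these 5 overlap, and no order among them is claimed.

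The 5 broad ones among the 10 had ratios of 5.01 to 6.54. IV:11913120-11916408, in the right arm, was the widest region of the chromosome at 3289 bp, with 616 ChIP and 123 scaled control tags and a ratio of 5.01 (95% interval 4.12 to 6.13). IV:13345993-13348655, of 2663 bp, had 536 against 102 tags. IV:291731-293391 near the left end had 464 against 71, a ratio of 6.54 (5.08 to 8.51), and IV:8151398-8153541 and IV:9676512-9678131 in the centre had ratios of 5.50 and 5.10. The upper limit of each of the 2 widest, 6.13 and 6.56, lay below the lower limit of 7.52 for the least enriched compact one. The nearest other midpoint lay 1.91 to 2.67 kb from the broad regions. For the compact ones it lay anywhere from 1.01 kb, at IV:8032072-8032590, to 21.7 kb, at IV:13919121-13919602.

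Completing the lists for each part adds 5 regions. In the left arm these were IV:5658926-5659863, with 312 ChIP and 39 scaled control tags, and IV:3611805-3612447, with a ratio of 11.6. In the centre they were IV:7188827-7189325, with 291 ChIP and 29 scaled control tags, and IV:8527345-8528069, with a ratio of 7.19. In the right arm IV:17245137-17245580, 444 bp wide, had 233 against 17 tags and a ratio of 13.7 (95% interval 8.38 to 23.9). The strongest region of the centre had a q-value of 2.56e-60, less extreme than the best of the left arm, 2.90e-80, and of the right arm, 1.55e-87. The centre thus led in number of regions and not in its single lowest q-value. Of the first 100 rows of the list, 10 lay in the centre of IV, 9 in its right arm and 8 in its left arm.

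**Figure D4:**
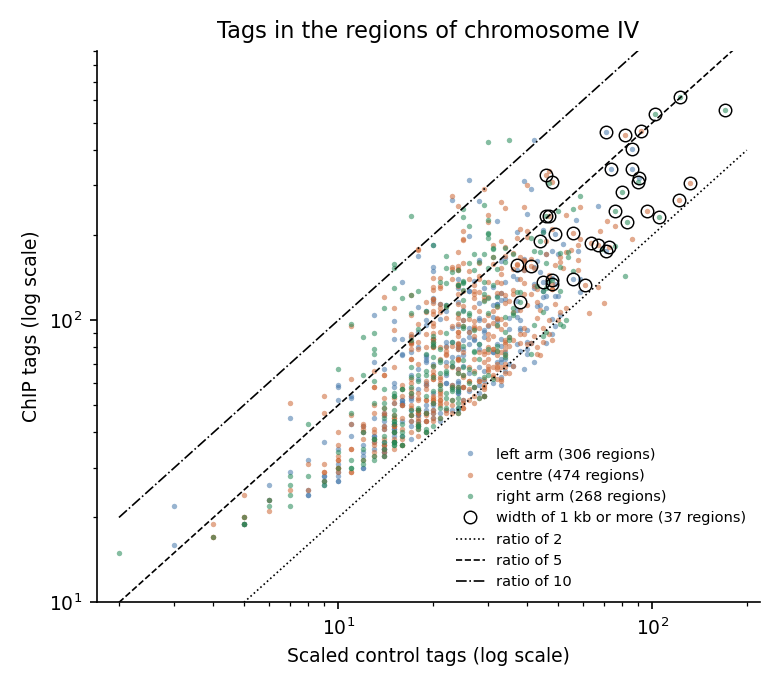
ChIP tags against scaled control tags for the 1048 regions of IV, on log axes, coloured by part, with lines at ratios of 2, 5 and 10 and circles around the 37 regions of 1 kb or more. The lowest ratio is 1.64, and 11 regions, all narrower than 1 kb, lie on or above the line at 10.

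Width differed little along the chromosome. The median was 368 bp on IV (95% interval 355 to 379), with 372 in the left arm (355 to 388), 371 in the centre (351 to 387) and 355 in the right arm (336 to 379), and these intervals overlap. It was 382 bp on the other autosomes (377 to 388), an interval that also overlaps that of IV. Regions of 1 kb or more numbered 37, or 3.53% (2.50 to 4.83), against 4.60% on the other autosomes (3.93 to 5.35). These 37 had a median ratio of 3.51, covered 11.9% of all bases in regions of IV, and 33 of them had a q-value under 1e-10. Besides those described, the widest were IV:13250441-13252771, of 2331 bp and with a ratio of 3.42, IV:294122-296332, of 2211 bp and with 4.69, and IV:5375469-5377678, of 2210 bp and with 3.99.

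At the other end, 15 regions were narrower than 100 bp. They had a median of 19 ChIP tags. The smallest width was 6 bp, found both in the centre and in the right arm. In the right arm IV:15720790-15720795 had this width, with 15 against 2 tags and a ratio of 7.50, whose interval ran from 1.74 to 67.6. The 3 lowest ratios among wider regions were 1.64 at IV:10503666-10504439 (95% interval 1.21 to 2.24), 1.68 at IV:11635574-11636554 and 1.69 at IV:3233352-3233944. The latter was a close neighbour of another listed region, 0.779 kb from midpoint to midpoint. The weakest listed q-value, 0.00974, belonged to IV:408929-409289, with 59 against 33 tags. The 48 regions with a ratio under 2 held a median of 68 ChIP tags and a median of 89.3 control tags per kb.

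Regions of lower q-value were wider, and the q-values of neighbours were nearly unrelated. With the 1048 regions ordered by q-value and split into 4 groups of 262, the median width went from 514.5 bp in the strongest to 399, 317.5 and 258 bp, and the median ratio from 5.24 to 3.50, 2.72 and 2.42. The centre held 46.2%, 42.7%, 48.5% and 43.5% of these groups, with no steady order from strong to weak. Across the 1048 regions Spearman's rho between width and -log10 q was 0.70, and between the -log10 q of 1047 pairs of neighbours it was 0.03. The ratio is solved from the q-value, so its order is set by the sorting. Tag number enters both width and q-value, and all pairs share libraries, so these are descriptions of 1 list.

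Regions with no neighbour within 10 kb were less often strong. On IV 196 regions had no other midpoint within 10 kb, and 36 of them, or 18.4% (95% interval 13.2 to 24.5), had a q-value under 1e-10. The share was 35.7% (32.0 to 39.4) in the 676 regions with the nearest midpoint between 1 and 10 kb away, and 34.1% (27.1 to 41.6) in the 176 with one within 1 kb. The interval of the isolated regions lay below both others. Their median width was 328.5 bp (301 to 355), against 377.5 bp (360 to 391) at 1 to 10 kb. On the other autosomes the shares were 20.0% of 761 isolated regions (17.2 to 22.99), 30.6% of 2190 (28.7 to 32.6) and 29.1% of 546 (25.3 to 33.1), so that the order was found there too.

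The gap in strength was seen in each part of IV, with intervals that stood apart only in the centre. In the centre 8 of 67 isolated regions, or 11.9% (95% interval 5.30 to 22.2), had a q-value under 1e-10, against 36.1% of the 407 others (31.4 to 41.0). The shares were 20.0% against 29.2% in the left arm and 23.7% against 40.7% in the right arm, with overlapping intervals. The 10 kb limit was chosen with the data known, and over all distances Spearman's rho with -log10 q was only -0.11 (1048 regions).

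**Figure D5:**
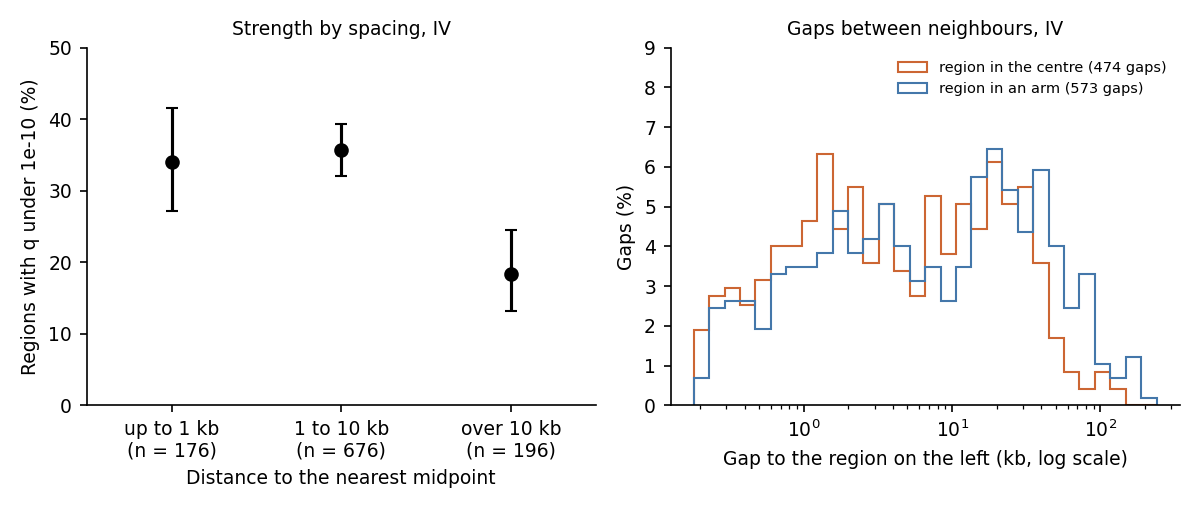
Left, share of regions of IV with a q-value under 1e-10 by the distance to the nearest other midpoint, with exact 95% intervals; the isolated regions are at 18.4% and the others at 34.1% and 35.7%. Right, gaps between neighbouring regions of IV on a log axis, as a share of the gaps whose right-hand region lies in the centre (474 gaps) or in an arm (573 gaps).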

How the data were processed

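The authors' deposited file is 1 list of regions combined over both extractions. Its only value is a q-value per region, written by PeakSeq, and its coordinates are on WormBase WS180, per the file headers and columns. Not given in the sources used here were the way replicates were combined, the aligner and the reads per library.

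Tag numbers were solved from the q-values. The p-value was taken as q times the row number divided by the number of tested regions, and as the chance of so few control tags among all tags of the region under a binomial with 0.5. The number 12873 fitted 100% of 200 sampled regions (next best 0.5%). All 1048 regions of IV had a single solution (tolerance 1e-11 on the natural log, totals up to 3000, then 20000). The recovery was tested on data simulated from the same formula, which covers the solving step only. The scaled control is the caller's and not raw input reads, and the meaning of the numbers was not tested.

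Parts, windows and distances used midpoints, and gaps run from edge to edge. Named were, on IV, the 10 lowest q-values and 5 per part, the 5 widest, 5 highest and 3 lowest ratios of at least 100 bp, the highest q-value, the 5 fullest windows, the 5 longest stretches, the 3 largest chains (the lowest q-value first among equals) and the regions beside each boundary. Other regions, bins and runs named were chosen after their values were seen. Members, limits and lists were chosen with earlier results of these data known. The gene table at hand is on WBcel235, so no gene was assigned and no sequence read. Python 3.11.15, scipy 1.17.1 and pandas 2.3.3 were used.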

Additional observations from a re-analysis of the deposited data

How the results depend on the processing

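The ratio of centre to arms on IV stayed between 1.56 and 1.81 over 8 alternatives. It was, however, 1.31 (95% interval 0.886 to 1.93) for regions with a q-value under 1e-20. The difference in median width between centre and arms was 6.00 bp (95% interval -27 to 34). It went from 4.5 to 8 over the alternatives that used medians, while the difference in mean width was -8.88 bp. The density of IV relative to the other autosomes was 1.28 for regions with a q-value under 1e-10, 1.31 for the first 1000 rows and, over all regions, 1.01 without chromosome I. Regions with a q-value under 1e-10 stood at 19.3 per Mb on IV (95% interval 17.3 to 21.5) and 19.2 on V (17.3 to 21.2). They stood at 16.1 on III (14.1 to 18.4), 14.8 on II (12.9 to 16.9) and 8.76 on I (7.33 to 10.4). Only the intervals of II and I lay below that of IV. The ratio of left to right arm, 1.14 over all regions, was 0.838 under 1e-10 and 0.734 in the first 1000 rows, all 3 with intervals that include 1, and 1.27 (95% interval 1.03 to 1.57) with arms of 25% of the length. Of the regions, 11.1% had a q-value under 1e-20 and 55.1% one under 1e-5. The median width was 402 bp under a q-value of 0.001, and the mean 439.8 bp. The longest stretch without a region with a q-value under 1e-10 was 552.8 kb. The ratio of ChIP to control was 3.57 from summed tags, 3.06 with 1 added to both numbers and 3.37 in regions of 300 to 500 bp. The share with a close midpoint was 0.763% within 500 bp, 44.8% within 2 kb, 34.0% from edge to edge and 14.6% under a q-value of 0.001. The share of very strong regions in the right arm of IV was 1.97 times that of the other right arms, and 1.36 with a q-value under 1e-10, 1.54 with 200 ChIP tags (0.974 to 2.42) and 1.35 in the outer part of each right arm (0.764 to 2.39), the last 2 with intervals that include 1; these alternatives were chosen after seeing the data. No paired analysis was possible because both replicates enter 1 deposited list, and for that reason neither could be left out. The causes were not tested.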
